A study of Rattus norvegicus with 18 samples.

Results

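The organic anion transporting polypeptides are a family of membrane carriers encoded by the Slco genes, and their transcripts are described here in rat kidney cortex. The family members were chosen by symbol: Slco1a1, Slco1a4, Slco1a6, Slco2a1, Slco2b1, Slco3a1, Slco4a1 and Slco4c1. Of these 8 genes, 7 had a row among the 18420 gene rows of the deposited table, and Slco4a1 was not analysed here. Messenger RNA of kidney cortex was sequenced in Zucker diabetic fatty (ZDF) rats, with 6 libraries in each of 3 groups, to profile diabetic kidney disease and its response to Roux-en-Y gastric bypass (RYGB), bariatric surgery that leaves a small stomach pouch joined directly to the jejunum. Healthy control rats had the genotype fa/+ at the leptin receptor gene and were lean without diabetes. The disease group was fa/fa and diabetic. The RYGB group was fa/fa, is labelled diabetic, and had the operation. All 3 groups were of the ZDF strain. The fa allele disables the leptin receptor in every tissue, so disease and healthy control differ in genotype and obesity as well as in diabetes. The labels give no age, no sex, no time after surgery and no sham operation, and they do not say that each library came from its own animal, so the tests here weigh differences against library-to-library spread, which may be technical.

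Slco carriers exchange large organic anions across the plasma membrane without using ATP, and their usual cargo includes bile acids, steroid sulfates and glucuronides, thyroid hormones, prostaglandins and many drugs. In the rat kidney several Slco1a carriers sit in the brush border of the proximal tubule and Slco4c1 sits in its basolateral membrane, where it takes up digoxin, thyroid hormone and uraemic toxins. In rodents Slco1a1 is known for strong dependence on sex hormones. Slco2a1 is the prostaglandin transporter, Slco2b1 carries steroid sulfates, and Slco3a1 carries prostaglandins and thyroxine.

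Values are normalised reads, which are read counts divided by a size factor of the library, and group values are means ± SD (n = 6). They are not divided by transcript length, so levels are compared between groups and never between genes. A library held between 8116638 and 42713246 reads in genes. A gene was called when its adjusted p from limma over all 13988 tested genes was under 0.05, and fold changes are on the log2(value + 1) scale ± SE. Healthy control replicate 4 stood apart: in 126 genes with no overlap between the remaining 5 lean libraries and the 12 fa/fa ones, it sat at a median of 0.942 on a scale from 0 (mean of those 5 lean libraries) to 1 (fa/fa mean). Markers of the labelled tissue were present in every library, with a summed level of 87402 to 237020 normalised reads for 8 early proximal tubule genes and 13879 to 34919 for 6 podocyte genes. Summed levels of 9 hepatocyte genes lay between 633 and 2088, and none of them had a group mean of 0.

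The Slco1a genes form a row of neighbours on rat chromosome 4. In the RefSeq annotation of the GRCr8 assembly the order is Slco1c1, Slco1b2, Slco1a4, Slco1a1, Slco1a3, Slco1a6 and Slco1a5. The 250 bases before the start of each gene were compared because Slco1a1 and Slco1a6 turned out to differ between groups in unlike proportions. The windows of Slco1a1 and Slco1a4 were the most alike, with 176 identical bases in 265 aligned columns (66.4%), and the other 27 of 28 pairs among 8 Slco genes shared 37.9 to 49.5%. Slco1a1 and Slco1a6 shared 42.9%. The windows lie at chr4:176681993-176682242 for Slco1a1, at chr4:176495847-176496096 for Slco1a4 and at chr4:176839033-176839282 for Slco1a6, all on the minus strand of GRCr8, and are printed 5′ to 3′ with capitals for bases that are identical between the aligned Slco1a1 and Slco1a4 windows. The Slco1a6 window was not part of that alignment and has no capitals.
Slco1a1: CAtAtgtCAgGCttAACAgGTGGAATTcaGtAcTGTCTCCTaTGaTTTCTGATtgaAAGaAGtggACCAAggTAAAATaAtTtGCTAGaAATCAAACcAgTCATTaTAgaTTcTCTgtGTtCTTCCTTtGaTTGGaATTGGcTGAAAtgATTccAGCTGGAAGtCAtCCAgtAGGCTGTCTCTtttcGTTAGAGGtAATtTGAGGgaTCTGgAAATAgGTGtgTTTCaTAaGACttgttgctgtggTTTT
Slco1a4: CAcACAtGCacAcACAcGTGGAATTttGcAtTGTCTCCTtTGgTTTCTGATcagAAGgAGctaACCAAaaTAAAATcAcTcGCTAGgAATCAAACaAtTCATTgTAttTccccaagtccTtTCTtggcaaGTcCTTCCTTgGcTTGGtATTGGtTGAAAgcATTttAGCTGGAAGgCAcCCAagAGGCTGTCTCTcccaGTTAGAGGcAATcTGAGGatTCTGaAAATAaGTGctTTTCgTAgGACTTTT
Slco1a6: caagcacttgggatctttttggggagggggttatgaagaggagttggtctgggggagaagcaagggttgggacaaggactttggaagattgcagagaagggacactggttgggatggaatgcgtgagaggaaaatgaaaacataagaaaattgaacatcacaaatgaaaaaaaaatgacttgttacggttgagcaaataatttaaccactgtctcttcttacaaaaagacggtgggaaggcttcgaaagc
The motif CAAAGTCCA, an HNF4 site, was sought on both strands of 300 bases around each start and was in none of the 8 Slco windows, against 0.391% of 33469 rat promoters of that length. A motif this rare would be missing from most sets of 8 promoters, so its absence tells little. GTTAAT, an HNF1 half-site, was sought in the same way and was also in none of the 8, against 7.45% of those promoters. At that share many sets of 8 promoters would also hold none, so this absence tells little too.

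Slco1a1 transcripts, which encode a carrier of bile acids and steroid conjugates, fell in both fa/fa groups. The healthy control libraries, replicates 1 to 6, held 2020, 1238, 2591, 765.4, 1615 and 1708 normalised reads. The disease libraries held 54.8, 64.7, 7.45, 4.22, 138.7 and 42.4. The RYGB libraries held 71.7, 502.9, 41.5, 286.4, 51.9 and 79.0. Every disease and every RYGB library lay below the lowest healthy control library, which was replicate 4, and only RYGB replicates 2 and 4 lay above all disease libraries. The mean was 1656 ± 629 in healthy control, 52.1 ± 49.1 in disease and 172 ± 186 in RYGB.

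Against healthy control, Slco1a1 was 31.8-fold lower in disease by the means (log2 fold change -5.62 ± 0.70, limma adjusted p = 0.000215) and 9.62-fold lower in RYGB (-3.80 ± 0.70, limma adjusted p = 0.00488). Both calls held with any 1 library left out, healthy control replicate 4 included (highest limma adjusted p 0.00106 in disease and 0.0162 in RYGB). Among all 13988 genes tested, its fold change in disease was the lowest. RYGB against disease gave 1.82 ± 0.70 with a limma adjusted p of 0.146 (raw p 0.0177) and a 95% interval of 0.35 to 3.29, so the difference was not called. The RYGB mean rests strongly on replicate 2, without which it was 106. Slco1a1 was the only tested Slco gene whose RYGB libraries were called different from healthy control. In bulk tissue, fewer cells of a type and less RNA per cell cannot be told apart, for this and all later genes.

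**Figure D1:**
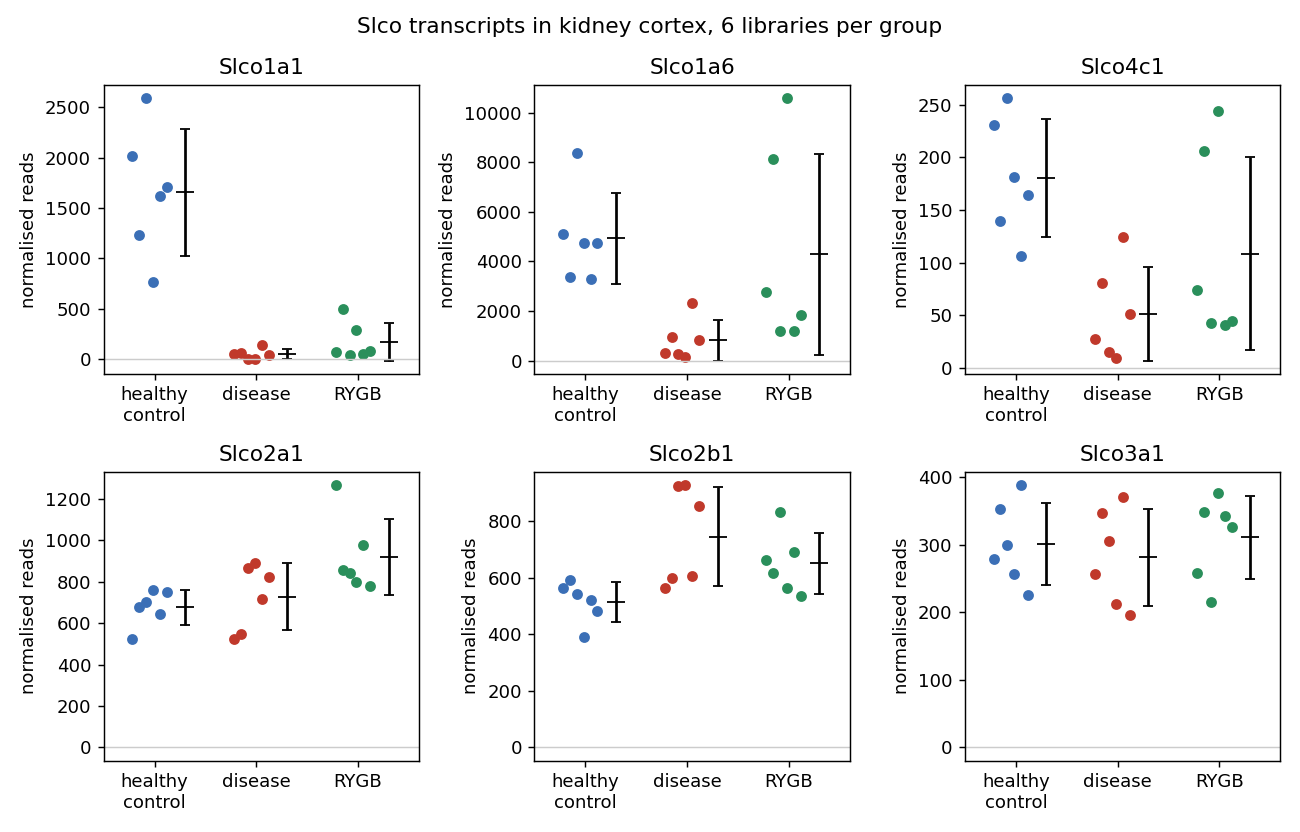
Normalised reads (vertical axis, linear, 1 panel per gene) of the 6 tested Slco members in healthy control, disease and RYGB, with 1 point per library in order of replicate number and the mean with its SD as a black bar. The disease points of Slco1a1 and Slco1a6 lie below all healthy control points. RYGB replicates 2 and 4 are the highest of their group in the upper 3 panels, though below all healthy control points for Slco1a1. In the lower 3 panels the group means lie closer together, while all RYGB points of Slco2a1 lie above its healthy control points.

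Slco1a6 fell in disease and was higher in RYGB than in disease. The healthy control libraries held 5120, 3387, 8359, 4727, 3275 and 4759 normalised reads. The disease libraries held 318.9, 957.3, 278.4, 142.6, 2340 and 814.7. The RYGB libraries held 2766, 8120, 1200, 10596, 1195 and 1854. No disease library reached the lowest healthy control library. The RYGB libraries covered the whole range between: replicates 2 and 4 were at or near the top of all 18 libraries, replicate 1 was above every disease library, and the other 3 were inside the disease range.

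The mean of Slco1a6 was 4938 ± 1843 in healthy control, 809 ± 816 in disease and 4288 ± 4045 in RYGB. Disease against healthy control gave -3.13 ± 0.60 (limma adjusted p = 0.00744) and was called with any 1 library left out (at most 0.0253). RYGB against disease gave 2.45 ± 0.60 (limma adjusted p = 0.0267), a 5.30-fold higher mean. That call ended with a limma adjusted p of 0.0675 without disease replicate 1, 0.0509 without disease replicate 4, 0.0533 without RYGB replicate 1, 0.0625 without RYGB replicate 2 and 0.0666 without RYGB replicate 4, and at 0.0648 when the 2 groups were fitted alone. The disease mean was 502 without replicate 5. RYGB against healthy control gave -0.68 ± 0.60 (limma adjusted p = 0.469), with a 95% interval from -1.93 to 0.57 that is too wide to call the levels alike.

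Slco1a3, the neighbour between Slco1a1 and Slco1a6, is not a chosen member. It encodes a kidney carrier known as OAT-K1 and is listed in the table under its older symbol Slc21a4, a match made after the values had been seen. Its mean was 4265 ± 1293 in healthy control, 971 ± 936 in disease and 3232 ± 2670 in RYGB. Disease lay below healthy control in all libraries (-2.60 ± 0.53, limma adjusted p = 0.0119), a call that ended with edgeR (adjusted p = 0.0556). RYGB against disease gave 1.84 ± 0.53 (limma adjusted p = 0.0543), not called by limma and called higher by DESeq2 (adjusted p = 0.041). Without disease replicate 5 that adjusted p was 0.0121 and the disease mean 616, without RYGB replicate 3 it was 0.0371 and without RYGB replicate 5 it was 0.0487. Slco1a3 and Slco1a6 belong to the same subfamily, and reads that align to several places were counted to no gene, so the counts of the Slco1a genes are uncertain where copies share sequence. Those reads made up 13.5 to 18.1% of all counted reads, with the highest shares in RYGB replicates 2 (18.1%) and 4 (17.3%). Their part in the Slco1a values was not tested.

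Whether neighbouring Slco1a genes changed by the same factor was tested on the difference between genes within each library. The difference log2(Slco1a1 + 1) minus log2(Slco1a6 + 1) averaged -1.60 ± 0.55 in healthy control, -4.09 ± 0.89 in disease and -4.72 ± 0.47 in RYGB. All 6 RYGB libraries, from -5.25 to -4.01, lay below all healthy control libraries, from -2.63 to -1.02. The shift from healthy control was -2.48 in disease (exact permutation p = 0.00433, adjusted p = 0.0195 over 9 such tests) and -3.12 in RYGB (exact permutation p = 0.00216, the smallest that 6 against 6 can give, adjusted p = 0.0195). The drop from healthy control to disease was thus by a larger factor in Slco1a1 than in Slco1a6. Paired by replicate number, disease against healthy control gave an exact p of 0.0312, the smallest that 6 pairs can give, and an adjusted p of 0.0938. Between RYGB and disease the difference moved by -0.63 (exact permutation p = 0.149, adjusted p = 0.192), which with a pseudocount of 8 became -0.94 (adjusted p = 0.013). That pseudocount exceeds the lowest disease values of Slco1a1 (4.22 and 7.45), so the second result depends on how low values are scaled.

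**Figure D2:**
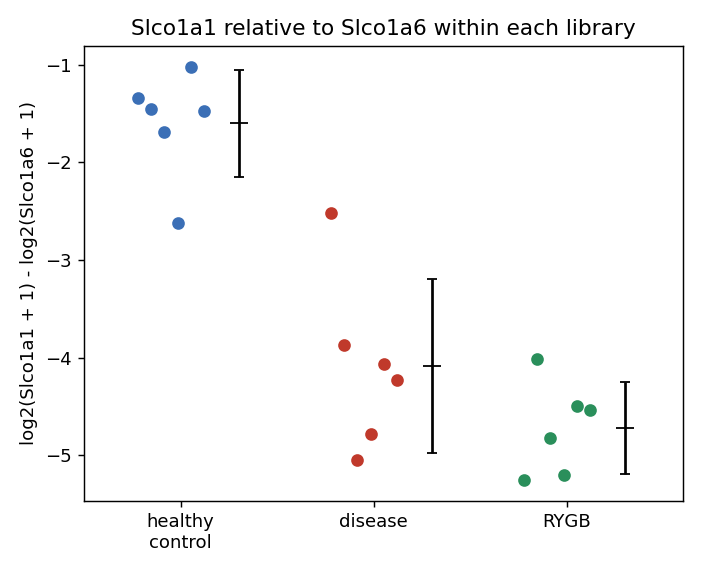
Within-library difference log2(Slco1a1 + 1) minus log2(Slco1a6 + 1) (vertical axis, log2 units) for the 6 libraries of each group, with the group mean and SD as a black bar. The RYGB points, from -5.25 to -4.01, lie below every healthy control point, and 1 disease point at -2.52 lies inside the healthy control range.

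Slco1a4, which in rats is best known as a carrier of liver and the blood-brain barrier, was at trace level. Its raw read counts were 7, 13, 10, 4, 8 and 3 in the healthy control libraries. They were 0, 6, 4, 5, 0 and 0 in disease and 0, 3, 0, 3, 4 and 1 in RYGB. A count of 0 allows up to 3 reads, which is 4.62 to 7.47 normalised reads in the 3 disease libraries without a read, inside the healthy control range of 3.52 to 9.93, and 3.28 and 3.31 in the 2 such RYGB libraries, just below it. The mean was 7.27 ± 2.44 normalised reads in healthy control, 1.92 ± 2.42 in disease and 1.66 ± 1.69 in RYGB, and the last 2 were 1.13 without disease replicate 2 and 1.09 without RYGB replicate 2. The gene did not reach 10 normalised reads in 6 libraries and was not tested in the main analysis. Without that filter, limma gave -1.89 for disease against healthy control (adjusted p = 0.077) and -1.84 for RYGB against healthy control (adjusted p = 0.0546).

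The within-library difference between Slco1a1 and Slco1a4 moved by -3.73 from healthy control to disease and by -1.96 from healthy control to RYGB (exact permutation, adjusted p = 0.0195 for both). Slco1a4 averaged 2.99 in healthy control on the log2(value + 1) scale, so it could fall by no more than that even at 0 reads, while the log2 fold changes of Slco1a1 were -5.62 and -3.80. A negative shift was therefore bound to appear, and these tests do not show whether the 2 genes changed by the same factor. Both calls also depended on how the trace counts of Slco1a4 were scaled: with a pseudocount of 0.5 the adjusted p was 0.074 and 0.0649. Paired by replicate number, the disease difference had an adjusted p of 0.0938. The remaining test, RYGB against disease, gave 1.77 (exact permutation, adjusted p = 0.195). For Slco1a4 minus Slco1a6 the adjusted p from exact permutation was 0.234 in disease against healthy control, 0.074 in RYGB against disease and 0.11 in RYGB against healthy control. Without disease replicate 5 the second of these was 0.0156, and without RYGB replicate 5 the last was 0.0351.

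Of the other Slco genes listed, Slco1b2 and Slco1a2 had rows, both at trace level. Slco1b2, the main bile acid and drug carrier of this family in liver, had 31 reads over the healthy control libraries, 2 over the disease libraries and 20 over the RYGB libraries, and every disease library lay below every healthy control library. That separation rests on very few reads. In disease replicates 1, 4, 5 and 6, which had no read, 3 reads would be 2.11 to 7.47 normalised reads. The healthy control libraries lay between 2.29 and 7.67. Slco1b2 also failed the filter, and without the filter limma gave -2.10 ± 0.46 for disease against healthy control (adjusted p = 0.0239). The row named Slco1a2 held 7, 10 and 7 reads in the 3 groups, and RefSeq lists that symbol as an older name of both Slco1a4 and Slco1a5.

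Slco4c1, the basolateral carrier of the proximal tubule, fell in disease, and its libraries overlapped. The healthy control libraries held 231.2, 139.8, 256.3, 181.5, 106.7 and 164.4 normalised reads. The disease libraries held 27.4, 80.3, 14.9, 9.84, 124.9 and 50.9. The RYGB libraries held 73.9, 205.7, 42.6, 243.8, 41.0 and 44.3. In disease only replicate 5 reached the healthy control range, and in RYGB only replicates 2 and 4 did. The mean was 180 ± 56.0 in healthy control, 51.4 ± 44.4 in disease and 108.5 ± 91.6 in RYGB.

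Disease against healthy control gave -2.23 ± 0.55 for Slco4c1 (limma adjusted p = 0.0415). The call was close to the threshold and ended without any single 1 of the 6 healthy control libraries, without disease replicate 1, 3 or 4 and without RYGB replicate 1 (adjusted p from 0.0505 to 0.123), with edgeR (0.116), DESeq2 (0.0706), a minimum value of 50 (0.053) and the replicate block within healthy control and disease (0.0501). RYGB against disease gave 1.15 ± 0.55 (limma adjusted p = 0.237) and RYGB against healthy control -1.07 ± 0.55 (limma adjusted p = 0.215), neither of them called.

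Counted over the 6 tested members, 3 fell in disease against healthy control (Slco1a1, Slco1a6 and Slco4c1) and 0 rose, where 1.03% of all tested genes fell and 0.579% rose. In RYGB against disease 1 member rose (Slco1a6) and 0 fell, against 1.84% and 2.1% of all tested genes. In RYGB against healthy control 1 fell (Slco1a1) and 0 rose, against 1.98% and 2.46% of all tested genes. At a raw p under 0.05, limma had 1 member higher and 3 lower in disease against healthy control. In RYGB against disease 4 were higher (Slco1a1, Slco1a6, Slco2a1 and Slco4c1) and 0 lower at that raw p. In RYGB against healthy control 2 were higher and 1 lower. The share of all tested genes at that raw p is not given here. The members' median log2 fold change was -1.17, 0.75 and -0.32 in these comparisons, and that of all tested genes was 0.0016, -0.00087 and -0.013. The comparisons share groups, so the values of the first and of the other 2 are not independent.

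**Figure D3:**
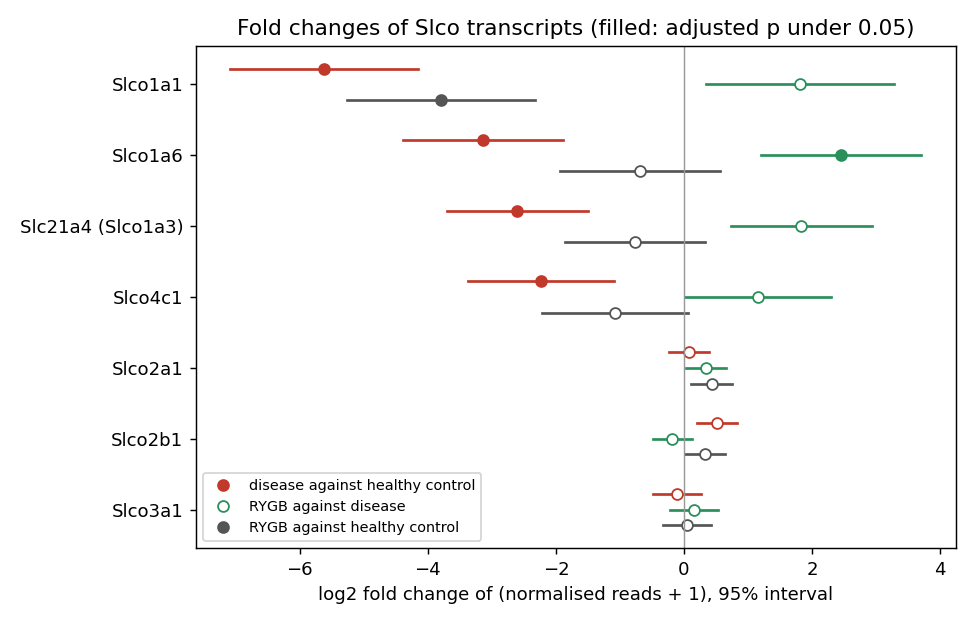
Log2 fold changes of normalised reads + 1 (horizontal axis) with 95% intervals for the 6 tested Slco members and Slc21a4 (Slco1a3), in disease against healthy control (red), RYGB against disease (green) and RYGB against healthy control (grey), with filled points for an adjusted p under 0.05 from limma. The upper 4 genes reach from -5.62 to 2.45, and the lower 3 stay within -0.18 to 0.51.

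Slco2a1, which takes up prostaglandins for breakdown, ranged from 525.8 to 758.0 normalised reads in healthy control (median 689.2), from 523.2 to 890.3 in disease (median 769.2) and from 780.9 to 1268 in RYGB (median 847.8). All 6 RYGB libraries lay above all 6 healthy control libraries, and the disease libraries spread over both ranges. RYGB against healthy control gave 0.43 ± 0.15 (limma adjusted p = 0.0908, raw p 0.00937), which was not called, although DESeq2 (adjusted p = 0.0403) and limma on those groups alone (0.0465) called it higher. RYGB against disease gave 0.35 ± 0.15 (limma adjusted p = 0.193) and disease against healthy control 0.08 ± 0.15 (limma adjusted p = 0.889).

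Slco2b1, a carrier of steroid sulfates, ranged from 390.0 to 590.7 normalised reads in healthy control (median 530.1), from 563.1 to 928.2 in disease (median 728.2) and from 536.5 to 832.7 in RYGB (median 640.3). Of the 6 disease libraries, 5 lay above every healthy control library, and disease replicates 3 and 4, the lowest for Slco1a1, Slco1a6 and Slco4c1, were its highest. Disease against healthy control gave 0.51 ± 0.15 (limma adjusted p = 0.109, raw p 0.00259), not called by limma and called by DESeq2 (adjusted p = 0.0226). RYGB gave 0.34 ± 0.15 against healthy control (limma adjusted p = 0.164) and -0.18 ± 0.15 against disease (limma adjusted p = 0.514).

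Slco3a1 had a mean of 301 ± 60.7 normalised reads in healthy control, 282 ± 71.5 in disease and 311 ± 61.6 in RYGB. The groups overlapped over nearly their whole range, and no comparison was called. The 95% intervals of the log2 fold change ran from -0.49 to 0.26 for disease against healthy control, from -0.22 to 0.53 for RYGB against disease and from -0.33 to 0.42 for RYGB against healthy control.

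Within the fa/fa groups the members that fell moved together from library to library. RYGB replicates 2 and 4 ranked highest in their group for Slco1a1, Slco1a6 and Slco4c1, and in disease replicate 5 ranked highest and replicate 4 lowest for the same 3 genes. Across the 18 libraries Pearson's r on the log2 scale was 0.86 between Slco1a1 and Slco1a6, 0.90 between Slco1a1 and Slco4c1 and 0.96 between Slco1a6 and Slco4c1. After removal of the group means these were 0.88, 0.90 and 0.98. Slco1a1 and Slco2b1 had r = -0.78 and, without group means, -0.56. These are descriptions over 18 libraries that share their size factors, and no test was made of them.

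**Figure D4:**
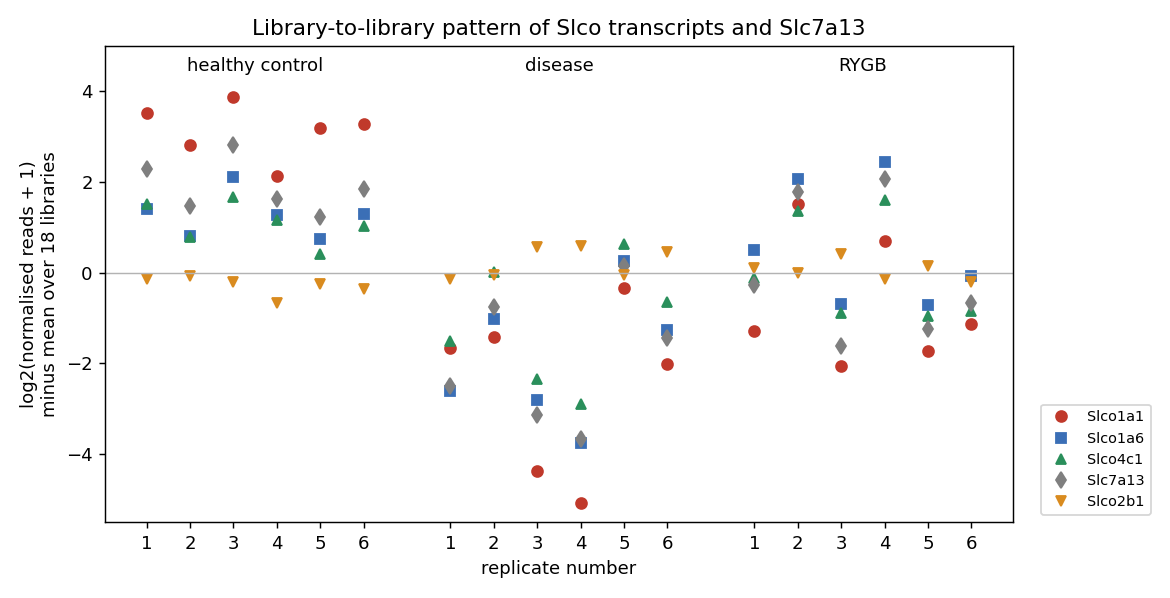
Log2(normalised reads + 1) minus the gene's mean over the 18 libraries (vertical axis) for Slco1a1, Slco1a6, Slco4c1, Slco2b1 and Slc7a13, by replicate number within healthy control, disease and RYGB (horizontal axis). Slco1a6, Slco4c1 and Slc7a13 move together, with RYGB replicates 2 and 4 high and disease replicate 4 low, and Slco2b1 stays within 1 unit of its mean.

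The 3 genes most like each member, by Pearson's r over the 18 libraries, included Slc7a13 for both Slco1a1 and Slco4c1. For Slco1a1 they were Kap, the androgen-responsive kidney protein (r = 0.957, and 0.854 after removal of group means), the amino acid carrier Slc7a13 (0.947 and 0.907) and Iqch (0.946 and 0.862). For Slco1a6 they were Slc21a4 (0.995 and 0.995), the prostaglandin-specific organic anion carrier Slc22a22 (0.993 and 0.983) and Sema6a (0.982 and 0.962). For Slco4c1 they were the brush border peptidase Mme (0.988 and 0.979), Slc7a13 (0.976 and 0.980) and Akr1c12l1 (0.970 and 0.948). Slc21a4 came close to Akr1c12l1 there (0.969 and 0.972), so lists cut at 3 do not show that these members have different partners.

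The other members had other neighbours in this ranking. Slco2a1 was most like Sema4b (r = 0.921, and 0.887 after removal of group means), Pcbp3 (0.895 and 0.831) and Fgfrl1 (0.881 and 0.809). Slco2b1 was most like Bpi (0.816 and 0.698), Glrx (0.794 and 0.604) and Nnt (0.780 and 0.696), the lowest values among the members. Slco3a1 was most like Gal3st1 (0.905 and 0.920), Calhm2 (0.899 and 0.896) and Tmem184b (0.878 and 0.885).

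Markers of the late proximal tubule and of the thick ascending limb moved only in part in the same libraries as the members that fell. Of 9 tested late-segment genes, 5 fell in disease against healthy control (Slc7a13, Kap, Slc22a7, Slc3a1 and Acsm3) and 0 rose, with a median log2 fold change of -0.59. Their summed level was 111571 to 211112 normalised reads in healthy control, 56103 to 71105 in disease and 65570 to 137683 in RYGB, with RYGB replicates 2 and 4 the highest of their group and no marker at 0. In healthy control the sum was highest in replicate 3 (211112), as were Slco1a1, Slco1a6 and Slco4c1. In disease the sum did not follow the members, although the single markers Slc7a13 and Kap did in part. Replicate 4, their lowest library, had the second highest sum (70867, against 71105 in replicate 5). Replicate 2, second highest for the members, had the second lowest sum (57810). Slc7a13 and Kap, unlike the sum, were highest in disease replicate 5, second highest in replicate 2 and lowest in replicate 4. The library order of the other late-segment markers is not given here. Abundant markers weigh most in the sum, such as Slc3a1 (disease mean 20450) and Acsm3 (19540). Slc7a13 averaged 12447 ± 5469 normalised reads in healthy control, 1286 ± 1247 in disease (841 without replicate 5) and 5178 ± 5394 in RYGB. In RYGB against disease limma called 0 of the 9 (5 higher at a raw p under 0.05, with edgeR and DESeq2 calling 1, Slc3a1) and all 9 had positive fold changes, and in RYGB against healthy control 2 fell (Kap and Acsm3). Of 4 tested thick ascending limb genes, 2 fell in disease against healthy control (Umod and Cldn10, with all 4 lower at a raw limma p under 0.05), 3 rose in RYGB against disease (Umod, Cldn10 and Cldn19) and 0 were called by limma or edgeR in RYGB against healthy control (1 at a raw limma p under 0.05, Cldn10, which DESeq2 called lower). Their summed level was 75566 to 100061 normalised reads in healthy control, 24424 to 73100 in disease and 46608 to 120813 in RYGB, with disease replicate 5 and RYGB replicates 2 and 4 again the highest of their groups. In healthy control the sum was highest in replicate 5, where Slco1a6 and Slco4c1 were lowest. Of 8 tested early-segment genes limma called 0 in any comparison, with 0, 2 and 1 at a raw p under 0.05 in the order of the comparisons, 0 by edgeR, and Slc34a1 called higher by DESeq2 in RYGB against disease. The early-segment sum was 87402 to 177061 normalised reads in healthy control, 89111 to 188651 in disease and 131583 to 237020 in RYGB. Here RYGB replicates 2 and 4 were the lowest of their group (131583 and 146344). In disease, replicates 3 and 4 were the highest (180839 and 188651) and replicates 2 and 5 the lowest (89111 and 94205). Of 8 tested tubular injury genes 5 rose in disease against healthy control, and 3 fell in RYGB against disease (Havcr1, Spp1 and Clu). Sox9 and Vcam1 went the other way in disease against healthy control (-0.86 and -0.25), without a call. Sox9 gave 1.02 in RYGB against disease (limma adjusted p = 0.0994), where DESeq2 called it higher. In RYGB against healthy control 2 of the injury genes were higher (Cdkn1a and Krt8), and edgeR and DESeq2 also called Vcam1 lower. The part of these markers in the Slco values was not tested.

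Endothelial markers, given here because Slco2a1 is known in vessels, had 1 called lower of 9 in disease against healthy control and 2 lower in RYGB against healthy control. Their summed level was 15634 to 22302 normalised reads in healthy control, 14517 to 20625 in disease and 15909 to 18567 in RYGB. The groups' ranges overlapped, and the part of these markers in the Slco2a1 values was not tested.

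Other carriers of organic anions and urate changed in part. Of 9 tested, 2 fell in disease against healthy control, 2 rose in RYGB against disease and 0 were called by limma, edgeR or DESeq2 in RYGB against healthy control (3 at a raw limma p under 0.05). Slc22a22 averaged 1085 ± 282 normalised reads in healthy control, 264 ± 235 in disease and 861 ± 609 in RYGB, giving -2.45 for disease against healthy control (limma adjusted p = 0.00936) and 1.86 for RYGB against disease (0.0356). The second call ended without disease replicate 1, 3 or 4 or RYGB replicate 1, 2, 4 or 6 (adjusted p 0.0533 to 0.0926), with edgeR (0.0503) and with the compared groups alone. Slc22a7, also a late-segment marker, gave -2.51 for disease against healthy control (limma adjusted p = 0.0394), a call that ended with edgeR and the replicate block and without healthy control replicate 1, 2, 3, 4 or 6, disease replicate 1, 2, 3 or 4 or RYGB replicate 1 (0.0501 to 0.113). The urate exchanger Slc22a12 rose in RYGB against disease (1.28, limma adjusted p = 0.00368). Slc22a6, the main para-aminohippurate uptake carrier, was not called in any comparison.

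Among 10 tested ATP-driven exporters of organic anions, 0 were called in disease against healthy control or RYGB against disease, and 1 rose in RYGB against healthy control. At a raw limma p under 0.05 there were 2 and 3 in the comparisons without a call, where edgeR called 0 and DESeq2 called 0 and 1 (Abcc10). The exporter that rose was Abcb11, the bile salt export pump, at 67.3 ± 94.8 normalised reads in healthy control and 367 ± 200.9 in RYGB (log2 fold change 2.97, limma adjusted p = 0.00465). Without replicate 4 the healthy control mean of Abcb11 was 28.8. Of 10 bile acid handling genes, 1 rose and 1 fell by limma in each RYGB comparison and limma called 0 in disease against healthy control (1 at a raw p under 0.05, 0 by edgeR and Slc51b lower by DESeq2). In RYGB against disease both edgeR and DESeq2 also called Slc51b higher. Cyp7b1, an oxysterol hydroxylase, fell in RYGB by 0.88 against disease (limma adjusted p = 0.00343) and by 1.08 against healthy control (0.000768). Fgfr4, a bile acid signalling receptor, rose by 0.85 (limma adjusted p = 0.0205) and 0.80 (0.0293). The first Fgfr4 call ended without disease replicate 1 or 2 or RYGB replicate 4 (0.0532 to 0.0572), and the second without healthy control replicate 1, 2, 5 or 6 or RYGB replicate 1, 2, 4, 5 or 6 (0.0523 to 0.0803).

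Thyroid hormone genes (6 tested) and prostaglandin genes (11 tested) had 0 limma calls in all 3 comparisons, with median log2 fold changes between -0.15 and 0.24. At a raw limma p under 0.05 there were 1, 1 and 0 thyroid hormone genes and 0, 2 and 4 prostaglandin genes. Of both lists edgeR called 0, and DESeq2 called only Hpgd, the prostaglandin dehydrogenase, higher in RYGB against disease. Of 9 steroid conjugation and response genes, 1 rose in disease against healthy control and 2 rose in RYGB against healthy control, and limma called 0 lower. At a raw limma p under 0.05, 2 were lower in disease against healthy control, and both edgeR and DESeq2 called Esr1, an oestrogen receptor, lower there. In that comparison edgeR called 0 higher, and DESeq2 called Sult1a1 and Srd5a1 higher. In RYGB against disease limma and edgeR called 0, DESeq2 called Hsd17b2 higher, and 3 were higher at a raw limma p under 0.05. Sult1a1, a phenol sulfotransferase, gave 0.97 in disease (limma adjusted p = 0.0327) and 1.55 in RYGB (0.000788), both against healthy control. The disease call ended with edgeR, with the compared groups alone and without healthy control replicate 1, 2, 3, 5 or 6 or disease replicate 3 or 4 (0.0596 to 0.0986). Hsd17b2, which inactivates oestradiol and testosterone, rose in RYGB against healthy control (1.21, limma adjusted p = 0.0293), a call that ended without healthy control replicate 1, 2, 5 or 6 or RYGB replicate 1, 5 or 6 (0.0559 to 0.0766).

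Of 12 tested transcription factors known to act on Slco genes, 0 were called by limma, edgeR or DESeq2 in disease against healthy control (3 at a raw limma p under 0.05), 2 rose in RYGB against disease and 2 rose in RYGB against healthy control. Stat5a (0.95, limma adjusted p = 0.0281) and Stat5b (0.39, 0.0499), which carry growth hormone and prolactin signals, were higher in RYGB than in disease. The Stat5a call ended without RYGB replicate 1, 2, 4 or 5 (0.0577 to 0.0743) and with the compared groups alone (0.0632). The Stat5b call ended without any single 1 of the 6 disease libraries, without healthy control replicate 2, 5 or 6 and without RYGB replicate 1, 2, 4 or 5 (0.0532 to 0.126), and under 6 other settings (0.0502 to 0.104). Cebpa (0.65, limma adjusted p = 0.0209) was higher in RYGB than in healthy control. The Cebpa call ended without healthy control replicate 1 or RYGB replicate 1 or 6 (0.0508 to 0.0631).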

How the data were processed

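The table covers 18 libraries. Its deposited signal values are read counts that the authors divided by a library-wide size factor, so whole reads were recovered (100% of values within 0.01 reads or a small share of the value). Per the submitters' processing notes, HTSeq 0.6.1p1, DESeq2, FastQC 0.11.2 and MultiQC 0.9 were used with the build Rnor 5.0 (aligner: not given in the sources used here). Of 18423 rows, 3 name no gene (no feature 27.6 to 43.2% of counted reads, not unique 13.5 to 18.1%, ambiguous 0.0695 to 0.114%) and stayed out of tests. All pairs of libraries of a group differed by more than sampling noise (chi-square per degree of freedom at least 22.5).

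Log2(value + 1) was tested with limma-trend (version 3.58.1, R 4.3.3) in 13988 genes with at least 10 in at least 6 libraries. A single fit of 3 group means (15 residual degrees of freedom) gave two-sided p-values, adjusted by Benjamini-Hochberg over all tested genes. Differences between members within a library were compared by two-sided exact permutation, adjusted over 9 tests. The code was tested on simulated data. The members and gene lists were chosen with earlier results of these data known. Of 182 listed genes, 147 matched a row by symbol and 1 by an older symbol. Named were all members, other Slco genes with a row, up to 3 called genes of each pathway list per comparison (else its highest), and the 3 genes most correlated with each member. From the named genes without a call, only some are printed, and 1 called gene of a pathway list is counted but not reported here by name.

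Replicate numbers recur in the groups. Deviations of same-numbered libraries from their group means correlated at 0.131 to 0.325 between healthy control and disease, in all 6 pairs above 0.1. Of 30 pairs with different numbers there, 8 were above 0.1, up to 0.389, and 5 of 12 libraries correlated best with their own number. The labels do not say what the numbers share. They were used as pairing only in alternatives, and the main tests ignore them. Alternatives were pseudocounts of 0.5 and 8, no filter, a minimum of 50, quantile and TMM scaling, edgeR 4.0.16, DESeq2 1.42.0, the compared groups alone, a replicate block, and each library left out. The block within healthy control and disease was added after seeing the data. Upstream sequences came from RefSeq (GRCr8), and no coordinates of the build used by the authors are given.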

Additional observations from a re-analysis of the deposited data

Results flagged for a closer look

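In 29 named genes, the highest or lowest library of a group was compared with the other 5 by Dixon's criterion (87 gene and group pairs), and 9 values stood apart. Chance flags about 1 in 20 groups. Among the members, Slco1a6 had 8359 normalised reads in healthy control replicate 3, where the other 5 lay between 3275 and 5120. Slco1a6 also had 2340 in disease replicate 5, where the others lay between 142.6 and 957.3. The neighbour Slc21a4 (Slco1a3) stood apart in the same libraries, with 6811 in healthy control replicate 3 and 2746 in disease replicate 5. In healthy control replicate 4, Abcb11 was at 260.0, against at most 40.1 in the others, and Sult1a1 at 2137, against at most 963. In RYGB replicate 2, Slc22a12 was at 8063 and Hsd11b2 at 17427, each the highest of its group. Slc22a6 was at 13686 in healthy control replicate 1, where the others lay between 22965 and 25342.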

How the results depend on the processing

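In disease against healthy control 2 to 3 members were called with any 1 library left out. Slco1a1 and Slco1a6 were called by edgeR and in the replicate block fit, and Slco1a1, Slco1a6 and Slco2b1 by DESeq2. In RYGB against disease the count of 1 became 0 with the compared groups alone, 0 in the replicate block fit, and 0 to 1 with a library left out. In RYGB against healthy control it was 2 with DESeq2 and 2 with the compared groups alone (Slco1a1 and Slco2a1). Of 9 differences between Slco1a genes, 4 passed the threshold (2 of them with Slco1a4, whose low level fixes their sign), 2 with a pseudocount of 0.5, 7 with 8, 0 of them paired in the replicate block, and 4 to 5 with a library left out. The counts at 0.5 and 8 depend on how low values of Slco1a1 and Slco1a4 are scaled. Same-numbered libraries correlated at -0.557 to 0.309 between disease and RYGB and at -0.31 to 0.0141 between healthy control and RYGB, and 1 and 0 of 12 libraries correlated best with their own number. These values cannot tell whether the numbers share anything there. With Slco1a6 the block gave RYGB against disease an adjusted p of 0.0573. It also ended the calls of Slc22a22 and Stat5b in that comparison.

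Directions changed only in results without a call. With a library left out, the log2 fold change of Slco3a1 in RYGB against healthy control ran from -0.030 to 0.147. In RYGB against disease Abcg2 ran from -0.060 to 0.168, Hsd11b2 from -0.432 to 0.015 and Slc7a8 from -0.231 to 0.031. In disease against healthy control Nr1h4 ran from -0.093 to 0.201 and Ptgr2 from -0.043 to 0.115. Slc7a8 in RYGB against healthy control ran from -0.104 to 0.158 and was -0.046 with quantile scaling, and Slco1a4 minus Slco1a6 in that comparison was 0.014 with a pseudocount of 8. The cause of these changes was not tested. Of 79 single results, 32 kept their direction and side of the threshold under every alternative tried, among them all 3 comparisons of Slco1a1. Slco4c1 minus Slco4a1 was not run, since Slco4a1 was not analysed here. Depth limits Slco1a4, Slco1b2 and Slco1a2, each at 13 reads or fewer per library.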
